A study of Mus musculus with 6 samples.

Results

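Antioxidant enzymes and classic target genes of the transcription factor NRF2 were followed in RNA from whole pancreatic islets. The group was chosen by gene name and held 10 of the 54556 genes in the deposited table: Hmox1, Nqo1, Gclc, Gclm, Txnrd1, Srxn1, Slc7a11, Gpx1, Gpx3 and Cat. There were 3 libraries labelled β-Mettl3-KO, with the genotype Mettl3 flox/flox RIP-Cre, and 3 libraries labelled Mettl3 flox/flox, from C57BL/6 mice on normal chow at 8 weeks of age. METTL3 is the enzyme that places m6A, a methyl mark on adenosine, in mRNA, and the comparison asks how islet transcripts differ once its gene is deleted in β cells. RIP-Cre is a Cre recombinase driven by a rat insulin promoter, so deletion is directed to insulin-producing cells while the other cells of the islet keep the gene. All 6 libraries carry the floxed alleles, and since none carries Cre without them, Cre and deletion cannot be told apart as sources of a difference. The labels do not say whether mice were pooled, and the p-values therefore measure only the spread between these libraries.

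Levels are given in FPKM (fragments per kilobase of gene length, relative to a library size) as the authors deposited them, scaled so that the typical gene is level between libraries. A gene was tested if its mean over the 6 libraries was at least 1 FPKM, with limma on log2(FPKM + 0.5), and it is called higher or lower where the Benjamini-Hochberg adjusted p over all 14497 tested genes was under 0.05. Differences are on that log2 scale, knockout label minus flox/flox, which understates changes of genes with low values. Reads recovered from the FPKM steps came to 16719393 to 18387313 in the libraries labelled knockout and 16398862 to 17691055 in the flox/flox libraries. Replicate 3 lay between replicates 1 and 2 of its group for 8 of the 10 genes in the libraries labelled knockout and for 6 in the flox/flox libraries, against 51.3% and 41.7% of all tested genes.

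Mettl3 itself was at 4.06, 4.20 and 4.15 FPKM in the libraries labelled knockout, against 3.42, 2.89 and 3.93 FPKM in the flox/flox libraries. The log2 difference of 0.25 ± 0.11 (SE, limma adjusted p = 0.120) did not pass, and its sign is that of a higher level. A sum of reads over the gene cannot reveal a missing exon, so the genotype is unchecked here and directions are those of libraries labelled knockout. Islet hormones were abundant in all libraries, with Ins2 at 77888 FPKM or above and Gcg at 5627 FPKM or above. Summed over 10 β-cell markers the level was 112093 to 125413 FPKM in the libraries labelled knockout and 257106 to 319383 FPKM in the flox/flox libraries, and 9 of the 10 markers fell. In whole islets, fewer cells of a type and less RNA per cell cannot be told apart.

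NRF2, encoded by Nfe2l2, is held in the cytoplasm and sent for degradation by KEAP1 in unstressed cells. When oxidants or electrophiles modify KEAP1, NRF2 accumulates, pairs with a small MAF protein and binds antioxidant response elements near genes for glutathione supply, thioredoxin recycling, quinone reduction and heme breakdown. BACH1 competes for the same elements. β cells are known for low levels of catalase and glutathione peroxidase compared with tissues such as liver.

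Promoters from RefSeq (GRCm38.p6, 250 bases before to 50 after an annotated start site) were matched by symbol for 8 of the 10 genes, all but Hmox1 and Gclc, and numbered 10 because Txnrd1 had 3. The core of the antioxidant response element was searched as TGACNNNGC on both strands. It was found in 3 of these 10 promoters and in 12.4% of all 32851 promoters of that length. A second form, TGANTCAGC, which overlaps the first where its N is C, was found in 1 of the 10 and in 1.19% of all, and was searched after the sequences had been seen. The 3 promoters with a match are shown because they belong to 1 gene called higher in the comparison below and to 2 that were not. Capitals mark the matches, which read in reverse complement where the element lies on the opposite strand.
Txnrd1, chr10:82858956-82859255, plus strand: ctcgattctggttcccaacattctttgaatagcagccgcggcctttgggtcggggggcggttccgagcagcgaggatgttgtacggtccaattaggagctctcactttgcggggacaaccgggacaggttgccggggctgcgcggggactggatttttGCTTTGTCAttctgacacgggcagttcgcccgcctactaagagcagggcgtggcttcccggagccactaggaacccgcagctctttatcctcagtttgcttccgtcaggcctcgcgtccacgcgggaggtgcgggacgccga
Gclm, chr3:122245307-122245606, plus strand: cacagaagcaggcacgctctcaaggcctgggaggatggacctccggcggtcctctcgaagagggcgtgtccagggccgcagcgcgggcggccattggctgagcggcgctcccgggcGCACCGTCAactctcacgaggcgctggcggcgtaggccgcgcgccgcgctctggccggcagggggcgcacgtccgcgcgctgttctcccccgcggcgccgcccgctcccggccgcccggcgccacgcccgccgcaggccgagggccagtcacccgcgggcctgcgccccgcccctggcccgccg
Srxn1, chr2:152105274-152105573, plus strand: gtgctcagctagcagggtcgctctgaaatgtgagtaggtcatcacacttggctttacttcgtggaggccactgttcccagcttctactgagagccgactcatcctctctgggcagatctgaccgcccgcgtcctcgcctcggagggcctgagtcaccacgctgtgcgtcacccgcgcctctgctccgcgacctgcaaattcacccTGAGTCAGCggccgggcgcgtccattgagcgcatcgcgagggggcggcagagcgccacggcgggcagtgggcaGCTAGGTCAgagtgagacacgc

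The match in Txnrd1, TGACAAAGC on the opposite strand, lay 92 bases before the start site of the promoter shown, promoter 2 by position. Promoters 1 and 3 of Txnrd1, at other start sites, had no match. The match in Gclm, TGACGGTGC on the opposite strand, lay 134 bases before its start site. Srxn1 had TGAGTCAGC on its own strand 45 bases before the start site and TGACCTAGC on the opposite strand 29 bases after it. A match of letters is a description and not a bound site.

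The 10 genes spanned a wide range of levels. Gpx3, the secreted glutathione peroxidase, was highest at 213.6 ± 37.2 FPKM in the libraries labelled knockout and 198 ± 27.9 FPKM in the flox/flox libraries (SD, n = 3 each), and ranked 98 of 54556 genes by mean level. Gpx1, the cytosolic glutathione peroxidase, followed at 68.3 ± 6.12 FPKM in the libraries labelled knockout and 63.5 ± 3.80 FPKM in the flox/flox libraries. Srxn1 and Txnrd1 came next, between 12.6 and 20.9 FPKM over all libraries. Gclc, Gclm and Cat lay between 5.0005 and 10.3 FPKM, Nqo1 and Hmox1 between 1.17 and 4.72 FPKM, and Slc7a11 at 0.312 FPKM or below in every library. Among neighbours in that order, the ranges of the 3 libraries overlapped for Srxn1 and Txnrd1, Gclc and Gclm, Gclm and Cat, and Nqo1 and Hmox1 in the libraries labelled knockout. In the flox/flox libraries they overlapped for Gclm and Gclc alone.

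Most of these genes differed little between the groups. Of 9 that passed the filter on low values, 2 rose, Txnrd1 and Gclc, 0 fell and 7 did not pass. Over all tested genes 16.9% were called higher, 17.2% lower and 34.0% in either direction, so the count of called genes is not above the background of the table. The median log2 difference of the 9 genes was 0.10, against -0.00452 over all 14497. At an unadjusted p under 0.05, Cat and Nqo1 joined Txnrd1 and Gclc. The groups did not overlap for 5 of the 10 genes, 4 with the libraries labelled knockout above and 1 with them below, where 50.5% of all tested genes were separated, 25.1% above and 25.4% below. Slc7a11, one of the 5, did not pass the filter.

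**Figure D1:**
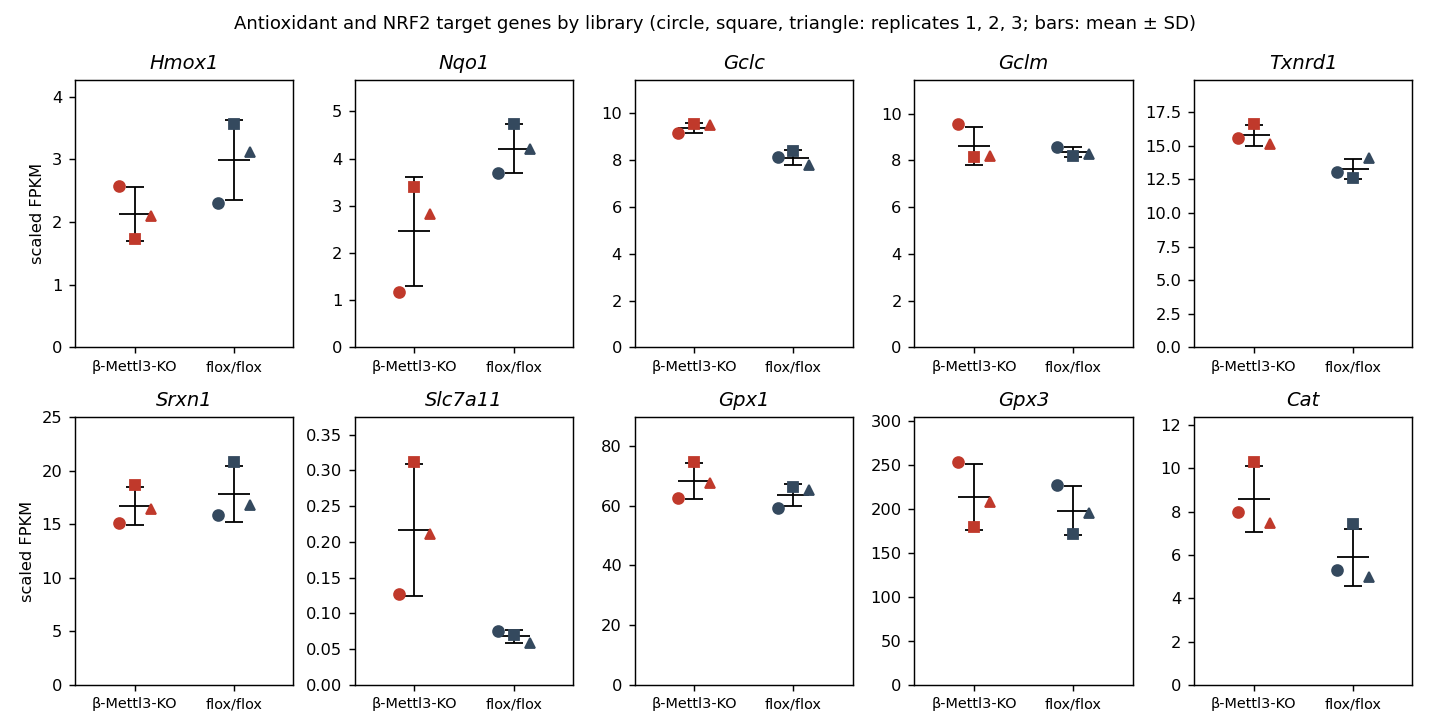
Level of each of the 10 genes in scaled FPKM (vertical axis, from 0) in the 3 libraries labelled β-Mettl3-KO (red) and the 3 flox/flox libraries (dark), with replicates 1, 2 and 3 as circle, square and triangle and bars for mean ± SD. Txnrd1, Gclc, Cat and Slc7a11 are higher and Nqo1 is lower in every library labelled β-Mettl3-KO than in any flox/flox library, while the other 5 genes overlap.

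In glutathione synthesis, the 2 subunits of glutamate-cysteine ligase are given side by side. Gclc (ENSMUSG00000032350, chromosome 9, 77754535 to 77794485, GRCm38), the catalytic subunit and rate-limiting step, was at 9.14, 9.53 and 9.50 FPKM in the libraries labelled knockout, against 8.14, 8.40 and 7.78 FPKM in the flox/flox libraries. All 3 libraries labelled knockout stood above all 3 flox/flox libraries. On the log2 scale Gclc rose by 0.20 ± 0.06 (SE, limma adjusted p = 0.0486), or 1.15-fold with a 95% interval of 1.04 to 1.28. Gclm (ENSMUSG00000028124, chromosome 3, 122245557 to 122270732), the modifier subunit whose promoter is shown above, was at 9.54, 8.14 and 8.18 FPKM in the libraries labelled knockout, against 8.58, 8.20 and 8.29 FPKM in the flox/flox libraries. The groups overlapped, with replicate 1 of the labelled knockouts highest. The difference of 0.04 ± 0.08 (adjusted p = 0.741) had an interval of 0.899 to 1.17-fold. Whether the 2 subunits differed in their response was not tested.

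Thioredoxin recycling held the other call. Txnrd1 (ENSMUSG00000020250, chromosome 10, 82833951 to 82897712), the cytosolic selenoenzyme that reduces thioredoxin with NADPH, was at 15.6, 16.6 and 15.1 FPKM in the libraries labelled knockout, against 13.0, 12.6 and 14.1 FPKM in the flox/flox libraries. The groups did not overlap. On the log2 scale Txnrd1 rose by 0.24 ± 0.07 (SE, limma adjusted p = 0.0397), or 1.18-fold with a 95% interval of 1.05 to 1.33. Srxn1 (ENSMUSG00000032802, chromosome 2, 152105516 to 152111376) encodes sulfiredoxin, which restores over-oxidized peroxiredoxins. It was at 15.1, 18.7 and 16.4 FPKM in the libraries labelled knockout, against 15.8, 20.9 and 16.8 FPKM in the flox/flox libraries. Replicate 2 was highest in each group and the groups overlapped, with a difference of -0.09 ± 0.12 (adjusted p = 0.627, interval 0.766 to 1.158-fold).

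The calls of Gclc and Txnrd1 were both lost whichever of the 6 libraries was left out (limma adjusted p = 0.0589 to 0.154 for Gclc and 0.0534 to 0.103 for Txnrd1), and without a filter on low values (0.0671 and 0.0576). Their direction held under all 16 alternatives. Txnrd1 shares bases with Eid3 on its own strand, which had 13, 15 and 10 reads in the libraries labelled knockout and 2, 3 and 4 in the flox/flox libraries, against 2222 to 2305 and 1292 to 1483 reads of Txnrd1. Gclm overlaps Gm17494 on the opposite strand, which had 37 to 44 reads in the libraries labelled knockout and 16 to 48 in the flox/flox libraries.

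The 2 glutathione peroxidases among the 10, which reduce peroxides with glutathione, were not called. Gpx1 (ENSMUSG00000063856, chromosome 9, 108338903 to 108340343) was at 62.5, 74.7 and 67.6 FPKM in the libraries labelled knockout, against 59.2, 66.1 and 65.3 FPKM in the flox/flox libraries. Gpx3 (ENSMUSG00000018339, chromosome 11, 54902453 to 54910377) was at 253, 179.6 and 208 FPKM in the libraries labelled knockout, against 227, 172 and 195 FPKM in the flox/flox libraries. For both genes the groups overlapped, and replicate 2 was the highest of its group for Gpx1 and the lowest for Gpx3. For Gpx1 the log2 difference came to 0.10 ± 0.09 (SE, limma adjusted p = 0.414, interval 0.927 to 1.24-fold). For Gpx3 it was 0.11 ± 0.16 (adjusted p = 0.638, interval 0.831 to 1.39-fold).

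Cat (ENSMUSG00000027187, chromosome 2, 103453849 to 103485160) encodes catalase, the peroxisomal enzyme that splits hydrogen peroxide. It was at 7.97, 10.3 and 7.49 FPKM in the libraries labelled knockout, against 5.29, 7.42 and 5.0005 FPKM in the flox/flox libraries. Every library labelled knockout lay above every flox/flox library, the lowest of them just above replicate 2 of flox/flox. The log2 difference of 0.51 ± 0.17 missed the threshold (SE, limma adjusted p = 0.0615), at 1.43-fold with an interval of 1.07 to 1.90. Cat was called in 5 of 16 alternatives. These were scaling to own read totals (0.00581), a filter at 5 FPKM (0.0479), leaving out flox/flox replicate 2 (0.0242), and the following. Voom, limma's method for reads, on the recovered reads gave 0.0464, and a fit with the replicate number as a block gave 0.00905. Replicate 2 was highest and replicate 3 lowest in each group.

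Nqo1 and Hmox1, widely used as reporters of NRF2 activity, were not called in either direction. Nqo1 (ENSMUSG00000003849, chromosome 8, 107388225 to 107403206), a quinone reductase, was at 1.17, 3.39 and 2.83 FPKM in the libraries labelled knockout, against 3.70, 4.72 and 4.21 FPKM in the flox/flox libraries. Those values rest on 38, 103 and 91 reads in the libraries labelled knockout and on 87, 106 and 97 reads in the flox/flox libraries. All 3 libraries labelled knockout lay below the flox/flox libraries, and replicate 1 lay far below its own group. The log2 difference of -0.75 ± 0.31 did not pass (SE, limma adjusted p = 0.102, interval 0.358 to 0.987-fold). Without replicate 1 of the labelled knockouts it was -0.38 (adjusted p = 0.0832).

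Hmox1 (ENSMUSG00000005413, chromosome 8, 75093621 to 75100589) encodes heme oxygenase 1, which opens the heme ring and releases iron. It was at 2.58, 1.72 and 2.09 FPKM in the libraries labelled knockout, against 2.30, 3.56 and 3.12 FPKM in the flox/flox libraries. The groups overlapped, and the difference of -0.40 ± 0.18 did not pass (SE, limma adjusted p = 0.130, interval 0.559 to 1.02-fold). Macrophages, which recycle heme, also express this gene. Of 13 macrophage markers 12 were matched in the table and Vsig4 had 0 reads in all 6 libraries. Their summed level was 153 to 186 FPKM in the libraries labelled knockout and 153 to 172 FPKM in the flox/flox libraries. Of 8 tested, Lyz2 rose, Csf1r, C1qb and C1qc fell and 4 did not pass. The median log2 difference of the 8 was -0.40, with 7 negative, beside -0.40 for Hmox1. The part of macrophages in the Hmox1 values was not tested.

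Slc7a11 (ENSMUSG00000027737, chromosome 3, 49892526 to 50443614) encodes xCT, the cystine importer that feeds glutathione synthesis. It was at 0.127, 0.312 and 0.211 FPKM in the libraries labelled knockout, against 0.0760, 0.0696 and 0.0581 FPKM in the flox/flox libraries. The gene model is long at 13922 bases, and these levels correspond to 37, 85 and 61 reads in the libraries labelled knockout and to 16, 14 and 12 reads in the flox/flox libraries. Every library labelled knockout was above every flox/flox library, and the group means stood at a ratio of 3.20. An exact two-sided permutation test of the group means gave p = 0.1, the smallest that 3 against 3 allows. With voom on the recovered reads, chosen after seeing the data, the estimate on the log2 scale was 1.54 ± 0.49 (SE, limma adjusted p = 0.0389), or 2.91-fold with an interval of 1.36 to 6.24. That fit called 32.1% of 17773 genes, 17.0% as higher and 15.1% as lower. In limma without a filter, which called 13.2% of 32456 genes, 7.25% higher and 5.91% lower, the difference was 0.33 on the log2(FPKM + 0.5) scale and did not pass (adjusted p = 0.128).

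**Figure D2:**
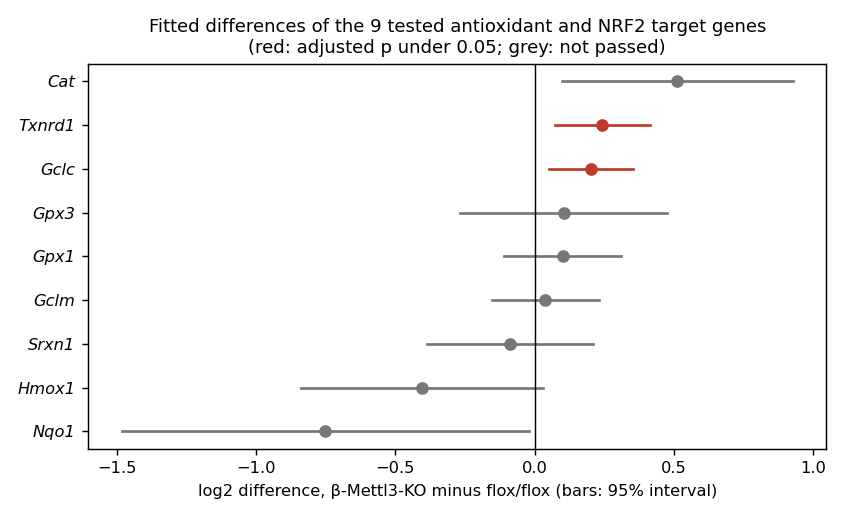
Fitted log2 difference (horizontal axis, libraries labelled β-Mettl3-KO minus flox/flox) of the 9 genes above the filter, with points for the estimate and bars for the 95% interval. Txnrd1 at 0.24 and Gclc at 0.20 passed the threshold (red), the widest interval is that of Nqo1 at -0.75, and Gclm has its estimate nearest 0.

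Levels of intestinal genes differed strongly between these libraries. Within the libraries labelled knockout, 8 of the 10 genes had the same or the opposite order as the enterocyte sum given next. Any gene has such an order when replicate 3 lies between replicates 1 and 2, as for 51.3% of all tested genes. Summed over 14 enterocyte markers, none of them at 0 reads in all 6 libraries, the level was 145, 893 and 464 FPKM in the libraries labelled knockout and 57.5, 48.6 and 51.8 FPKM in the flox/flox libraries. Of 12 tested enterocyte markers 11 rose. Rbp2, which carries retinol in the absorptive gut epithelium, was at 9.72, 148 and 74.3 FPKM in the libraries labelled knockout, against 0.275, 0.0719 and 0.0700 FPKM in the flox/flox libraries. Within the libraries labelled knockout, 5 of the 10 genes (Slc7a11, Nqo1, Gclc, Srxn1 and Gpx1) had the order of the enterocyte sum, with replicate 1 lowest and replicate 2 highest. The order was opposite in 3 (Hmox1, Gclm and Gpx3) and neither in 2 (Txnrd1 and Cat). Within the flox/flox libraries, where the sum ran from 48.6 to 57.5 FPKM, Nqo1, Srxn1, Gpx1 and Hmox1 had the opposite order to it. There Gclm and Gpx3 had its order, and Gclc, Slc7a11, Txnrd1 and Cat had neither. The shares of all tested genes with the same and with the opposite order were not counted separately. With replicate 1 as the only library left in that group, Gclc and Txnrd1 differed by 0.16 and 0.23, against 0.20 and 0.24 with all 6 libraries. Nqo1 then differed by -1.49, against -0.75 with all 6 libraries. Replicate 1 held the lowest Nqo1 value, 1.17 FPKM from 38 reads. Beyond these values, the part of intestinal cells was not tested.

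**Figure D3:**
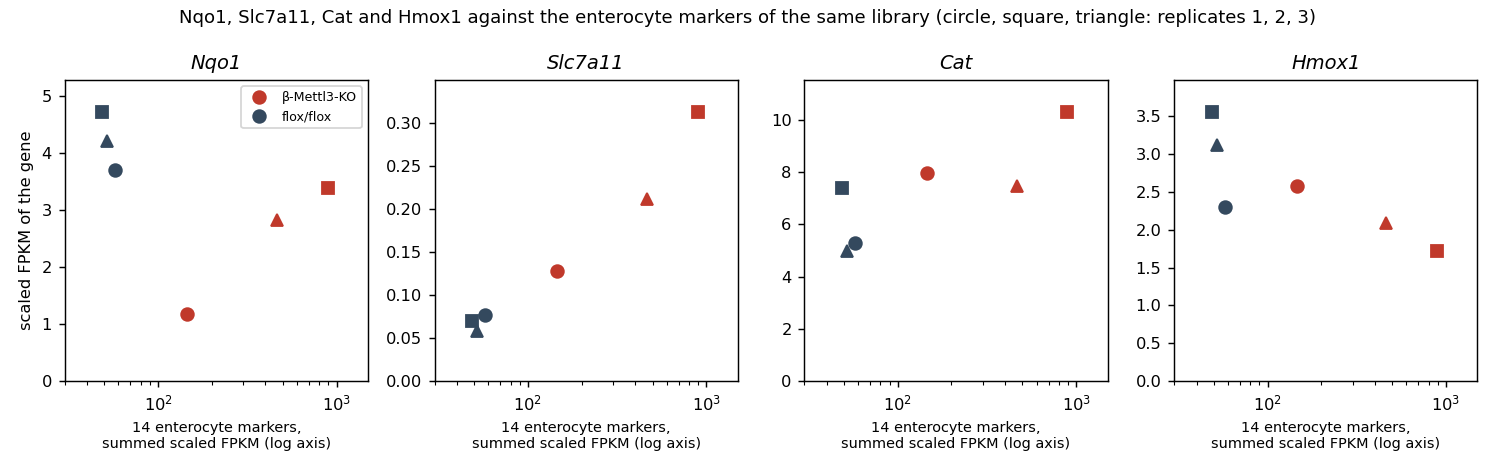
Scaled FPKM of Nqo1, Slc7a11, Cat and Hmox1 (vertical axes, from 0) against the summed scaled FPKM of 14 enterocyte markers in the same library (horizontal log axis), with libraries labelled β-Mettl3-KO in red, flox/flox in dark and replicates 1, 2 and 3 as circle, square and triangle. Slc7a11 runs from 0.127 to 0.312 FPKM and Nqo1 from 1.17 to 3.39 FPKM across the libraries labelled β-Mettl3-KO, both in the order of the markers, and Hmox1 runs in the opposite order. Across the flox/flox libraries Nqo1 and Hmox1 run in the opposite order to the markers, and Slc7a11 in neither order.

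Of 10 tested lymphocyte markers 10 rose, with summed levels of 1023 to 1533 FPKM in the libraries labelled knockout and 15.3 to 27.4 FPKM in the flox/flox libraries. Of 6 tested markers of intestinal secretory cells 5 rose, and of 7 duct markers 2 rose. All 9 endothelial markers fell, as did 9 of 10 acinar markers, 1 of 4 erythroid markers and the 1 tested adipocyte marker. Of 8 fibroblast and stellate cell markers 5 rose and 2 fell, and of 6 markers of α, δ and PP cells 1 rose. No neutrophil marker reached the filter, and Ly6g had 0 reads in all libraries. The part of these cells in the values of the 10 genes was not tested.

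The regulators of the pathway moved in both directions. Nfe2l2, encoding NRF2 itself, was at 14.4, 16.2 and 13.5 FPKM in the libraries labelled knockout, against 12.1, 11.9 and 11.9 FPKM in the flox/flox libraries. It rose by 0.28 ± 0.08 on the log2 scale (SE, limma adjusted p = 0.0376), a call that held in 8 of 16 alternatives and was lost in 5 of the 6 that left out 1 library, all but that without replicate 3 of the labelled knockouts. Keap1 was at 13.0, 12.8 and 13.3 FPKM in the libraries labelled knockout, against 13.5, 13.2 and 13.9 FPKM in the flox/flox libraries, and its difference of -0.05 ± 0.06 did not pass (adjusted p = 0.515) and had the opposite sign under scaling to own read totals. Bach1 differed by 0.23 ± 0.17 and did not pass (adjusted p = 0.340).

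Of 15 tested NRF2 pathway regulators 2 rose, 5 fell and 8 did not pass, with a median of 0.03. Mafg, a small MAF partner of NRF2, was at 16.5, 17.6 and 16.4 FPKM in the libraries labelled knockout, against 26.3, 30.4 and 27.8 FPKM in the flox/flox libraries. It fell by 0.72 ± 0.07 (SE, limma adjusted p = 0.00102) and was called in all 16 alternatives. Park7, encoding the redox-sensitive protein DJ-1, fell by 0.47 ± 0.09 (adjusted p = 0.00793) and Dpp3, a peptidase that binds KEAP1, fell by 0.44 ± 0.12 (adjusted p = 0.0284). Bach2, a relative of Bach1 known from B cells, rose by 1.61 ± 0.23 (adjusted p = 0.00316) beside the rise of the lymphocyte markers given above, whose part was not tested. The calls of Park7, Dpp3 and Bach2 held in 14 of 16, 8 of 16 and 15 of 15 alternatives, and that of Dpp3 was lost in 4 of the 6 that left out 1 library. The filter at 5 FPKM could not be run for genes below it, which leaves 15 alternatives.

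Among other genes that share functions with these 10, changes were spread over both directions. In 12 lists of redox genes, leaving out the 10, 29 of 165 tested genes rose, 39 fell and 97 did not pass, with a median of -0.01, beside 16.9% higher and 17.2% lower over the whole table. Scaling every library to its own read total, which moves the median of all tested genes by 0.36, gave 92 higher and 11 lower of these 165 genes. Over all 14497 tested genes that scaling gave 7550 higher and 716 lower.

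**Figure D4:**
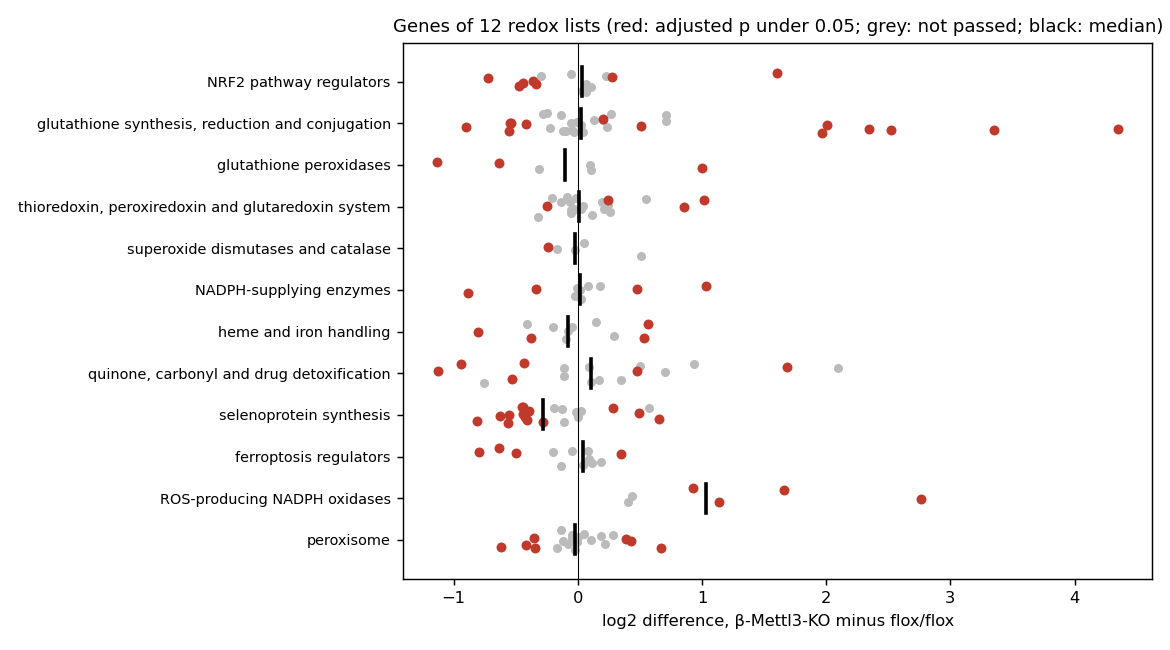
Log2 difference (horizontal axis, libraries labelled β-Mettl3-KO minus flox/flox) of each tested gene in 12 lists of redox genes, with red points for genes past the threshold, grey for the rest and a black line for the list's median. Medians lie near 0 in most lists, at -0.28 in the selenoprotein list and at 1.03 for NADPH oxidases, and the far right of the glutathione list is held by Gstm3 and Gsta1.

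For glutathione synthesis, reduction and conjugation, 8 of 31 tested genes rose, Gclc among them, 5 fell and 18 did not pass, with a median of 0.03. Gstm3, a glutathione transferase, was at 1.35, 39.9 and 16.6 FPKM in the libraries labelled knockout, against 0, 0 and 0.103 FPKM in the flox/flox libraries. Gsta1, another transferase, was at 0.753, 13.3 and 8.32 FPKM in the libraries labelled knockout, against 0, 0.0724 and 0 FPKM in the flox/flox libraries. Both had the order of the enterocyte markers over the libraries labelled knockout, as did Gsta4 and Ggt1, an enzyme that breaks down extracellular glutathione. These 4 rose with limma adjusted p = 0.0197, 0.0233, 0.00810 and 0.0289, and the part of intestinal cells was not tested. Their calls held in 11 of 16, 7 of 15, 15 of 15 and 7 of 15 alternatives. Those of Gsta1 and Ggt1 were lost in 5 of the 6 fits without 1 library, all but that without replicate 1 of the labelled knockouts, and that of Gstm3 in 4. The 5 that fell, named after their values were seen, were Gstm2, Gstz1, Hagh, Ggt7 and Chac1. They fell by 0.90, 0.55, 0.54, 0.54 and 0.41 (limma adjusted p = 0.00417, 0.00164, 0.00271, 0.00992 and 0.0399), calls that held in 15 of 16, 15 of 16, 14 of 16, 14 of 16 and 8 of 16 alternatives.

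Among thioredoxin, peroxiredoxin and glutaredoxin genes, 3 of 22 rose, Txnrd1 among them, 1 fell and 18 did not pass, with a median of 0.01. Txnip, which binds and inhibits thioredoxin and responds to glucose in β cells, was at 515, 313 and 403 FPKM in the libraries labelled knockout, against 205, 188 and 201 FPKM in the flox/flox libraries. It rose by 1.02 ± 0.17 (SE, limma adjusted p = 0.00623) and was called in all 16 alternatives. Prdx4, the peroxiredoxin of the endoplasmic reticulum, rose by 0.85 ± 0.14 (adjusted p = 0.00550). Prdx6, a peroxiredoxin that reduces phospholipid peroxides, fell by 0.25 ± 0.06 (adjusted p = 0.0215), with the opposite sign when libraries were scaled to their own read totals. Sod1, the cytosolic superoxide dismutase, fell by 0.24 ± 0.07 (adjusted p = 0.0431), also with the opposite sign under that scaling. The call of Sod1 held in 5 of 16 alternatives. It was lost under TMM scaling, quantile normalization, either other filter and 5 of the 6 fits without 1 library, all but that without replicate 1 of the labelled knockouts. Those of Prdx4 and Prdx6 held in 15 of 16 and 9 of 16. The other 4 of 5 tested genes for superoxide dismutases and catalase, Cat among them, did not pass.

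NADPH is used by both glutathione and thioredoxin reductases. In a list of enzymes named for its supply, not all of them dehydrogenases, 2 of 10 tested genes rose, 2 fell and 6 did not pass, with a median of 0.02. Idh2, the mitochondrial NADP-linked isocitrate dehydrogenase, was at 32.0, 29.7 and 28.5 FPKM in the libraries labelled knockout, against 55.7, 57.1 and 54.4 FPKM in the flox/flox libraries. It fell by 0.88 ± 0.07 (SE, limma adjusted p = 0.000358) and was called in all 16 alternatives. Pgls, of the pentose phosphate pathway, fell by 0.34 ± 0.08 (adjusted p = 0.0195), with the opposite sign under scaling to own read totals. Me2, a mitochondrial malic enzyme, rose by 1.03 ± 0.23 (adjusted p = 0.0170) and Pgd, of the pentose phosphate pathway, by 0.47 ± 0.11 (adjusted p = 0.0176), both highest in replicate 2, the library with the highest enterocyte sum. The calls of Pgls, Me2 and Pgd held in 10 of 16, 12 of 16 and 12 of 16 alternatives, and were lost in 4, 3 and 3 of the 6 fits without 1 library.

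In heme and iron handling, the field of Hmox1, 2 of 11 rose, 2 fell and 7 did not pass, with a median of -0.08. Ftl1, the light chain of the iron store ferritin, was at 174, 172 and 149 FPKM in the libraries labelled knockout, against 326, 237 and 305 FPKM in the flox/flox libraries. It fell by 0.80 ± 0.14 (SE, limma adjusted p = 0.00609). Blvra and Blvrb, which reduce the bile pigment that heme breakdown yields, differed in sign: Blvra fell by 0.38 ± 0.09 (adjusted p = 0.0242) and Blvrb rose by 0.57 ± 0.15 (adjusted p = 0.0256). Slc40a1, the iron exporter ferroportin, rose by 0.53 ± 0.11 (adjusted p = 0.0139). The calls of Blvra and Blvrb held in 8 of 15 and 8 of 15 alternatives, and each was lost in 4 of the 6 fits without 1 library. For Blvra these were the fits without replicates 2 and 3 of either group, and for Blvrb those without any 1 library labelled knockout or without flox/flox replicate 1. Those of Ftl1 and Slc40a1 held in 15 of 16 and 14 of 15.

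Of 17 tested enzymes of quinone, carbonyl and drug detoxification, 2 rose, 4 fell and 11 did not pass, with a median of 0.11. Aox1, an aldehyde oxidase, fell by 1.13 ± 0.12 (SE, limma adjusted p = 0.00125). Akr1c12 and Akr1c13, close relatives among the aldo-keto reductases that may share reads, fell by 0.94 ± 0.10 and 0.53 ± 0.09 (adjusted p = 0.000954 and 0.00521). Ephx2, a soluble epoxide hydrolase, was at 1.78, 9.78 and 4.74 FPKM in the libraries labelled knockout, against 1.30, 1.06 and 0.813 FPKM in the flox/flox libraries. It rose by 1.68 ± 0.51 (adjusted p = 0.0421), in the order of the enterocyte markers over the libraries labelled knockout. The call of Ephx2 held in 5 of 15 alternatives and was lost in 5 of the 6 fits without 1 library, all but that without replicate 1 of the labelled knockouts. Those of Aox1, Akr1c12 and Akr1c13 held in 15 of 15, 16 of 16 and 14 of 16.

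Of 6 tested genes for NADPH oxidases, which make superoxide, 4 rose, 0 fell and 2 did not pass, with a median of 1.03. Rac2, Ncf4, Ncf1 and Cyba rose by 2.76, 1.66, 1.14 and 0.93 (limma adjusted p = 0.000156, 0.00275, 0.00125 and 0.00583). These subunits are known best from leukocytes, all 10 tested lymphocyte markers rose in the same libraries, and the part of leukocytes was not tested. Among 13 ferroptosis regulators Ncoa4, which delivers ferritin for breakdown, rose by 0.35 (adjusted p = 0.0149). Alox12, a lipoxygenase, Gpx4 and Gch1, of tetrahydrobiopterin synthesis, fell by 0.79, 0.64 and 0.50 (adjusted p = 0.00354, 0.000836 and 0.0138), and 9 did not pass. Among 21 tested peroxisomal genes, which share the compartment of catalase, 3 rose, 4 fell and 14 did not pass. Of these Ehhadh and Hsd17b4, of fatty acid oxidation, rose by 0.67 and 0.43, and Pex10, of protein import, and Acaa1a, a thiolase, fell by 0.62 and 0.42 (adjusted p = 0.0101, 0.0153, 0.0229 and 0.0365). The calls of Pex10 and Acaa1a held in 8 of 15 and 8 of 16 alternatives, and those of the other 10 genes named here in at least 13.

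A selenocysteine residue, written by an in-frame TGA codon that normally stops translation, is part of 3 of the 10 enzymes. The codons annotated by GENCODE M21 (GRCm38) are shown, in capitals within 33 bases of transcript, because they mark the family with which these 3 genes are compared next.
Txnrd1, chr10:82896037-82896039, plus strand: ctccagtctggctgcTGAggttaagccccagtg
Gpx1, chr9:108339451-108339453, plus strand: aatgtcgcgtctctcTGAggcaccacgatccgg
Gpx3, chr11:54907256-54907258, plus strand: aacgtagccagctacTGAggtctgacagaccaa

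In Txnrd1 this was codon 612 of 613, next to the end of the reading frame, and in Gpx1 and Gpx3 it was codon 47 of 201 and codon 73 of 226. Of the 17 other tested genes with an annotated selenocysteine codon, 4 rose, 9 fell and 4 did not pass, with a median log2 difference of -0.39. Of Gpx1, Gpx3 and Txnrd1, 1 rose and 0 fell. The family was taken from the annotation after values had been seen, and whether the 3 genes differ from it was not tested.

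Gpx4, the peroxidase of membrane lipid peroxides, was at 40.4, 40.5 and 39.2 FPKM in the libraries labelled knockout, against 65.9, 60.6 and 61.4 FPKM in the flox/flox libraries. It fell by 0.64 ± 0.06 (SE, limma adjusted p = 0.000836) and was called in all 16 alternatives. Of 6 tested glutathione peroxidases 1 rose, 2 fell and 3 did not pass. Gpx8, of the endoplasmic reticulum and without selenocysteine, fell by 1.13 ± 0.25 (adjusted p = 0.0152). Gpx2, the gastrointestinal glutathione peroxidase, was at 7.29, 13.9 and 9.82 FPKM in the libraries labelled knockout, against 3.61, 6.19 and 4.75 FPKM in the flox/flox libraries. Gpx2 rose by 1.00 ± 0.26 (adjusted p = 0.0262), in the order of the enterocyte markers over the libraries labelled knockout. Over the flox/flox libraries its order was opposite to theirs, and the part of intestinal cells was not tested. The calls of Gpx8 and Gpx2 held in 13 of 15 and 10 of 16 alternatives.

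The 9 genes of the family that fell were Gpx4, Selenoh, Selenom, Selenos, Selenow, Selenof, Selenok, Selenot and Selenoo, by 0.39 to 0.64 on the log2 scale. Gpx2, Selenop, Sephs2 and Selenoi rose beside Txnrd1, and Dio1, Msrb1, Selenon and Txnrd3 did not pass. Among those that fell, the calls of Selenom and Selenof held in 14 of 16 and 14 of 16 alternatives, those of Selenok and Selenot in 11 of 16 and 11 of 16, and that of Selenos in 8 of 16. Those of Selenow and Selenoo held in 10 of 16 and 7 of 15. Among those that rose, the calls of Sephs2 and Selenoi held in 15 of 16 and 6 of 15. The calls of Selenoo and Selenoi were each lost in 5 of the 6 fits without 1 library. Selenop, the secreted selenium carrier, was at 181, 127 and 159.9 FPKM in the libraries labelled knockout, against 114, 84.9 and 97.4 FPKM in the flox/flox libraries. It rose by 0.65 ± 0.16 (SE, limma adjusted p = 0.0220). In a list of selenoproteins and the machinery that makes them, 3 of 21 rose, 11 fell and 7 did not pass, with a median of -0.28. Sepsecs, which forms selenocysteine on its transfer RNA, and Scly, which recycles selenium, fell by 0.81 ± 0.13 and 0.62 ± 0.06 (adjusted p = 0.00518 and 0.000883). Selenoh, a nuclear selenoprotein, fell by 0.56 ± 0.11 (adjusted p = 0.00963). The calls of Selenop, Sepsecs, Scly and Selenoh held in 10 of 16, 15 of 16, 16 of 16 and 14 of 16 alternatives. Under scaling to own read totals the list turned to 8 higher and 2 lower of 21, beside 7550 higher and 716 lower of all 14497 tested genes. With replicate 1 as the only library labelled knockout, Sepsecs, Scly and Selenoh differed by -0.75, -0.60 and -0.39, and Selenop by 0.88.

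**Figure D5:**
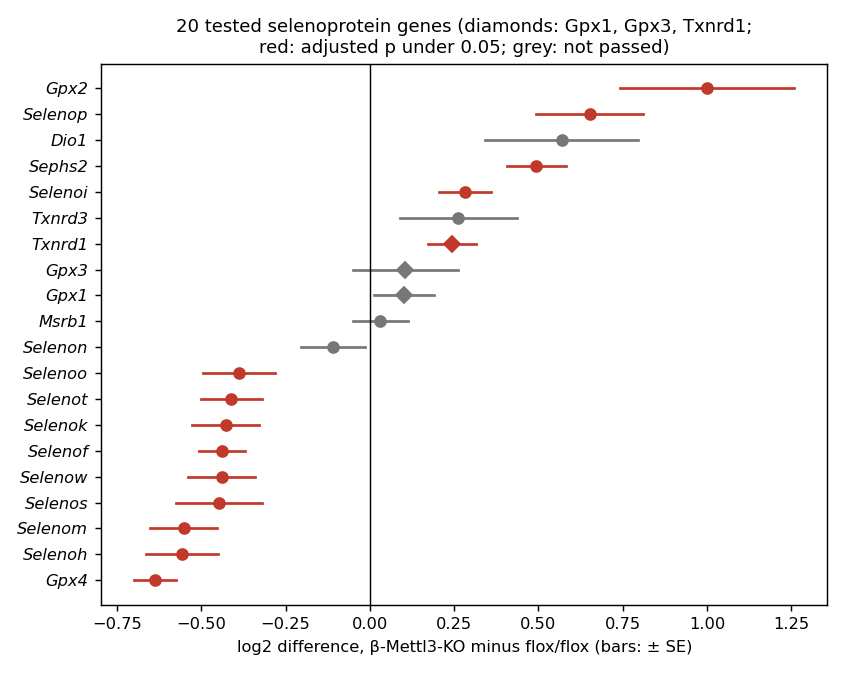
Log2 difference (horizontal axis, libraries labelled β-Mettl3-KO minus flox/flox) of 20 tested genes with an annotated selenocysteine codon, with bars for ± SE, red for genes past the threshold and diamonds for Txnrd1, Gpx3 and Gpx1. The diamonds lie between 0.10 and 0.24, while 9 genes down to Gpx4 at -0.64 were called lower.

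METTL3 methylates adenosine in a short context of which GGACU is a favoured form. In the longest coding transcript of each gene (GENCODE M21), GGACT occurred 4 times in Srxn1, Gclm and Slc7a11, 3 times in Cat, 2 times in Nqo1, Gclc, Txnrd1 and Gpx1 and 0 times in Hmox1 and Gpx3. Per kilobase this was between 0 and 1.87, against a median of 1.05 over 11863 tested genes. The counts in Txnrd1 and Gclc, the called genes, came to 0.552 and 0.584 per kilobase, below that median. Also below it were Gclm at 0.716, Slc7a11 at 0.434, and Hmox1 and Gpx3 at 0, while Cat, Nqo1, Srxn1 and Gpx1 lay above. A count of letters does not show methylation.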

How the data were processed

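RNA of whole islets was sequenced in 6 libraries, grouped and numbered by their titles and genotype labels, which give no batch. The submitters' processing notes name the build GRCm38.p6 and the tools DESeq2 1.16.1, HISAT2 2.0.5 and featureCounts 1.5.0-p3. What each did, and strandedness, is not given in the sources used here, so reads of overlapping genes cannot be assigned by strand. The authors deposited FPKM values of 54556 genes with gene lengths.

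FPKM times length fell on whole multiples of 1 step per library: 100% of values below 1000 reads lay within 0.1 of a whole number, and these were taken as reads. Median-of-ratios factors over 19623 genes were 1, so the authors' values were used as deposited, and total RNA per cell is unmeasured. A count of 0 allows up to 3 reads, by counting error only. Chi-square per degree of freedom between libraries of a group was 7.00 to 32.6, so no library repeated another's counts.

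limma 3.58.1 in R 4.3.3 (lmFit, eBayes with a variance trend, two-sided) was fitted to all genes with a mean of at least 1 FPKM and tested on simulated data. The 10 genes, the lists, the alternatives and the rule for named genes were chosen with earlier results of these data known. The rule takes the 10 genes, Mettl3, Nfe2l2, Keap1 and Bach1, per redox list up to 4 called genes with the largest difference, and per marker list up to 3 with the highest level. Genes with a selenocysteine codon beyond that rule, genes named because a list held few that fell, the macrophage markers that fell and markers named for having 0 reads were chosen after their values were seen. Of 194 list genes outside the 10, 192 were matched in the table. Columns of other samples numbered 0.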

Additional observations from a re-analysis of the deposited data

How the results depend on the processing

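Across 16 alternatives Hmox1, Nqo1, Gclc, Txnrd1, Slc7a11 and Cat kept their direction, wherever they were fitted; causes of the changes below were not tested. Of 153 values of the 10 genes under alternatives, 116 were counted as the same. That means an unchanged direction and side of the threshold, except for Slc7a11, which has no main call. Its values counted as the same, 7 of 11, lay within the SD between libraries of its main difference. Pseudocounts of 0.1 and 1, TMM scaling and quantile normalization changed no call among the 10 genes. Leaving out 1 library at a time gave log2 differences of 0.17 to 0.23 for Gclc and 0.21 to 0.29 for Txnrd1, none of which passed. It gave 0.38 to 0.68 for Cat, -0.0324 to 0.08 for Gclm (negative without β-Mettl3-KO replicate 1), -0.17 to 0.0276 for Srxn1 (positive without flox/flox replicate 2) and -0.0249 to 0.22 for Gpx3 (negative without β-Mettl3-KO replicate 1). Of the 10 genes 0 to 1 were then higher, of all genes 1370 to 2106 higher and 1410 to 2130 lower, both fewest without β-Mettl3-KO replicate 3, and of the redox lists without the 10 genes 17 to 30 higher and 22 to 36 lower.

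Without a filter Gclc at 0.20 and Txnrd1 at 0.24 did not pass, leaving 0 of the 10 higher. With a filter at 5 FPKM Cat at 0.51 passed, and 1247 of all genes and 17 of the redox lists were higher; fewer genes were tested. Scaling to own read totals moved the median gene by 0.36: Gclm at 0.42, Gpx1 at 0.50, Gpx3 at 0.51 and Cat at 0.89 then passed, Srxn1 turned to 0.31, 6 of the 10 genes were higher, of all genes 7550 were higher and 716 lower, and of the redox lists 92 higher and 11 lower. Without β-Mettl3-KO replicates 2 and 3, Gclc at 0.16 and Txnrd1 at 0.23 did not pass, Nqo1 at -1.49 did, Gpx1 turned to -0.0207, 0 of the 10 genes were higher and 1 lower, of all genes 771 were higher and 546 lower, and of the redox lists 8 higher and 8 lower. With voom on recovered reads, chosen after seeing the data, Gclc at 0.21 did not pass and Cat at 0.55 did.

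Libraries of the same replicate number in the 2 groups deviated together from their group means, with correlations of 0.0811, 0.0751 and 0.0423. Other pairs had -0.0679 to -0.0106, but deviations from a group mean cancel, so a positive pair forces negative values in others. Each library thus correlated best with its own number, over all tested genes a weak hint from the data only. Among the 10 genes, Nqo1, Gclm, Srxn1, Gpx1, Gpx3 and Cat had the same order of replicates in both groups, and the others did not. The labels do not say whether libraries of the same number are pairs. With the replicate number as a block, Gclc at 0.20 (limma adjusted p = 0.076) and Txnrd1 at 0.24 (0.0763) did not pass, Cat at 0.51 did (0.00905), and 1 of the 10 genes was higher. The SE went from 0.17 to 0.066 for Cat, from 0.16 to 0.058 for Gpx3 and from 0.12 to 0.061 for Srxn1. It also fell for Nqo1, Gclm and Gpx1, and rose for Hmox1, Gclc and Txnrd1. The planned edgeR and DESeq2 tests were not run because the table holds FPKM. Nqo1, Hmox1 and Slc7a11 rest on 106 reads or fewer per library, and the smallest difference that such depth can show was not measured.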
